A study of Mus musculus with 4 samples.

Results

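The genes considered here encode acute phase proteins of the liver: the serum amyloid A genes Saa1, Saa2 and Saa4, the orosomucoid genes Orm1 and Orm2, and Hp, Lcn2, Apcs, Crp and Lbp. They are 10 of the 33924 gene symbols in the count files and were picked by symbol, with their counts across the 4 ages in view. Their levels are therefore a description and were not tested. All 10 reached 20 counts in at least 1 library, and 9 of them were counted in every library, the exception being Lcn2 at 3 months of age.

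The acute phase response is the change in the secreted proteins of hepatocytes during infection or tissue injury. Interleukin-6 signals through its receptor and STAT3, and interleukin-1 and tumour necrosis factor signal through NF-kB, while C/EBP factors and glucocorticoids act together with them on the promoters. In the mouse, Saa1 and Saa2 are the strongly inducible members, whereas Saa4 is expressed constitutively and Crp responds much less than in humans. Proteins whose plasma level falls in the response, such as albumin and transthyretin, are called negative acute phase proteins.

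The livers came from C57BL6 mice (C57BL/6Rj in the methods) at the ages of 3 months (labelled young), 9 months (adult), 15 months (old) and 21 months (very old). No treatment is named in the labels, and the methods describe the animals as male, with free access to food and alternating light and dark phases of 12 h. For each age, RNA of 24 mice was combined, 4 mice at each of 6 times of the day, so that each age is represented by 1 library and daily rhythms are averaged out. A high value in a pool can come from few mice or from all of them, and with 1 pool for each age no replicate error can be given. The libraries were made from capped 5’-ends. They held from 525772 (15 months) to 958586 (9 months) counts on genes, and from 72.2% to 76.7% of all alignment records were set aside in the files as not unique. Counts are given as deposited, and normalised counts are counts divided by a library scale taken from the centered log-ratio, which was 1.21, 1.18, 0.728 and 0.958 at 3, 9, 15 and 21 months. Intervals are exact 95% intervals and cover counting error only.

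The sequences before the start sites of Saa1 and Saa2 are shown first. They are not part of the transcripts, so their likeness does not bear on how far the counts can be told apart. In the annotation of NCBIM37 (mm9), both genes are on chromosome 7, Saa1 at positions 53995871 to 53998350 (minus strand) and Saa2 at 54007203 to 54009684 (plus strand). The genes point away from each other, with 8853 bases between their start sites. The 250 bases before the RefSeq start sites (GRCm38.p6, chr7:46742981-46743230 on the minus strand for Saa1 and chr7:46751583-46751832 on the plus strand for Saa2) were identical at 238 of 249 aligned positions. Capitals mark the 11 substitutions and the 2 unpaired bases.
Saa1: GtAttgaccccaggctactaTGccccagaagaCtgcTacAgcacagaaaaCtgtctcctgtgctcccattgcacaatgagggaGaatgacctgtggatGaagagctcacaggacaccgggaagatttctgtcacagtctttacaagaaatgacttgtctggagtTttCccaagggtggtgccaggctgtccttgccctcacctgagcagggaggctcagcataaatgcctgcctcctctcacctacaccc
Saa2: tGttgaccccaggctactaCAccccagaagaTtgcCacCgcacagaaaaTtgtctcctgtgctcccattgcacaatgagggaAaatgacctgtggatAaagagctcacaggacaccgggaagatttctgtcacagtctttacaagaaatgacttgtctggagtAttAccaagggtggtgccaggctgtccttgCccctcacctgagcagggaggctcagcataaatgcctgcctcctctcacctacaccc
Counted from 1 at the first base of the Saa1 stretch, T165A and C168A are the substitutions closest to the start. They fall in a match of Saa1 to the C/EBP letters TTNNGNAA (TTTCCCAA on this strand, 86 bases before the start), which Saa2 lacks. A further match, TTGCACAA, was present in both genes, 182 and 183 bases before their starts.

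The transcribed 5’-ends, which bear on how far the counts of Saa1 and Saa2 can be told apart, were also compared. Windows of 35 bases, the length of the reads, were taken from the first 100 bases of the annotated transcripts and searched in the NCBIM37 genome with at most 1 mismatch. All 40 windows of Saa1 that could be placed in the gene without crossing a splice junction also had a place in Saa2, 37 of them without a mismatch. All 41 such windows of Saa2 had a place in Saa1, 38 of them without a mismatch. Along the whole transcripts of 605 and 610 bases, 18.4% of the windows of Saa1 occurred unchanged in Saa2. Reads from the shared stretches were not unique, and records that were not unique are not part of the gene counts. The counts of Saa1 and Saa2 are therefore uncertain both in level and in their division between the genes. Hp had a second place for 30 of its 66 windows (14 without a mismatch). No window of Saa4, Orm1, Orm2, Lcn2, Apcs, Crp or Lbp had a second place, although 193 of the 741 windows along the whole Orm1 transcript occurred unchanged in Orm2.

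Promoters of 7 members were found in the RefSeq table, while those of Orm1, Hp and Lbp were not in it. The letters TTNNGNAA, searched on both strands of the 250 bases before the start, were found in 6 of these 7 (Saa1, Saa2, Saa4, Orm2, Lcn2 and Crp), and in 36.9% of all 32851 promoters. STAT letters (TTCNNNGAA) were found only in Apcs (7.02% of all promoters), and ACANNNTGT, letters of the glucocorticoid receptor, only in Lcn2 (5.84%). TATAAA on the strand of the gene was present in Orm2 and Crp (7.59%). Neither GGNNTTTCC for NF-kB nor GTTAATNAT for HNF1 was present in any of the 7 windows (4.93% and 0.737% of all promoters). The matches did not overlap each other. The promoters of Orm2 (chr4:63362199-63362448, plus strand) and Lcn2 (chr2:32387740-32387989, minus strand) are given because both genes had higher levels at 15 than at 3 and 9 months, with the matched letters in capitals.
Orm2: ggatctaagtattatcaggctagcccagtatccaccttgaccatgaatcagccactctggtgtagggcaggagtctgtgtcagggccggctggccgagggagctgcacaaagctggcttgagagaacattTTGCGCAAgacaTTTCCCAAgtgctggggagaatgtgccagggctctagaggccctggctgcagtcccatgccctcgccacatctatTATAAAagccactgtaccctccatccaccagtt
Lcn2: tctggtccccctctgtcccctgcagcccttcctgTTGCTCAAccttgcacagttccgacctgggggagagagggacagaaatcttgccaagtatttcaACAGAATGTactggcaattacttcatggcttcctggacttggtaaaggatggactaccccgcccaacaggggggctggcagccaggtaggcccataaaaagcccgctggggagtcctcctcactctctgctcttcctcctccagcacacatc
In Orm2 the capitals are 2 C/EBP matches, 120 and 108 bases before the start, and the TATA box at 33 bases. In Lcn2 they are a C/EBP match at 216 bases and the glucocorticoid receptor letters at 152 bases. A match describes the sequence and does not show that a factor binds there.

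Saa1 and Saa2 encode the main acute phase serum amyloid A proteins, apolipoproteins carried by high-density lipoprotein. Saa1 had 11, 11, 28 and 17 counts at 3, 9, 15 and 21 months, or 9.08, 9.29, 38.4 and 17.8 normalised counts. Its level was highest in the 15 month pool, 4.14-fold above that at 9 months (interval from 1.997 to 9.21). Saa2 had 4, 11, 33 and 4 counts, or 3.30, 9.29, 45.3 and 4.18 normalised counts. The 15 month pool again had the highest level, 4.88-fold above 9 months (from 2.40 to 10.7), and 13.7-fold above 3 months (from 4.88 to 53.3). At 21 months Saa2 was 10.8-fold lower than at 15 months, a ratio of 0.0922 (from 0.0237 to 0.259), whereas Saa1 had a ratio of 0.462 (from 0.237 to 0.874).

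Because the genes share sequence, their counts were also summed. The sum does not depend on how counts are divided between the genes. It does not restore the reads set aside as not unique. The sum was 15, 22, 61 and 21 counts, and the level at 15 months was 4.51-fold that at 9 months (from 2.73 to 7.71) and 6.76-fold that at 3 months (from 3.796 to 12.8). The 21 month pool was not separated from the 9 month pool, with a ratio of 1.18 (from 0.617 to 2.25). Within a library, the ratio of Saa1 to Saa2 counts was 2.75 at 3 months (from 0.815 to 11.8), 1 at 9 months (from 0.393 to 2.54), 0.848 at 15 months (from 0.494 to 1.45) and 4.25 at 21 months (from 1.39 to 17.4). The intervals of the 15 and 21 month ratios overlapped only slightly, between 1.39 and 1.45, and rest on 4 counts of Saa2 at 21 months.

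Saa4, the constitutive member of the family, lies 10437 bases from the start of Saa1 (chromosome 7, 53983387 to 53987913, minus strand). It had 64, 76, 63 and 71 counts, or 52.9, 64.2, 86.5 and 74.1 normalised counts. Its highest level was also that at 15 months, but the ratio to 9 months was 1.35 with an interval from 0.949 to 1.91. Only against 3 months did the interval leave out 1 (ratio of 1.64, from 1.14 to 2.35).

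**Figure D1:**
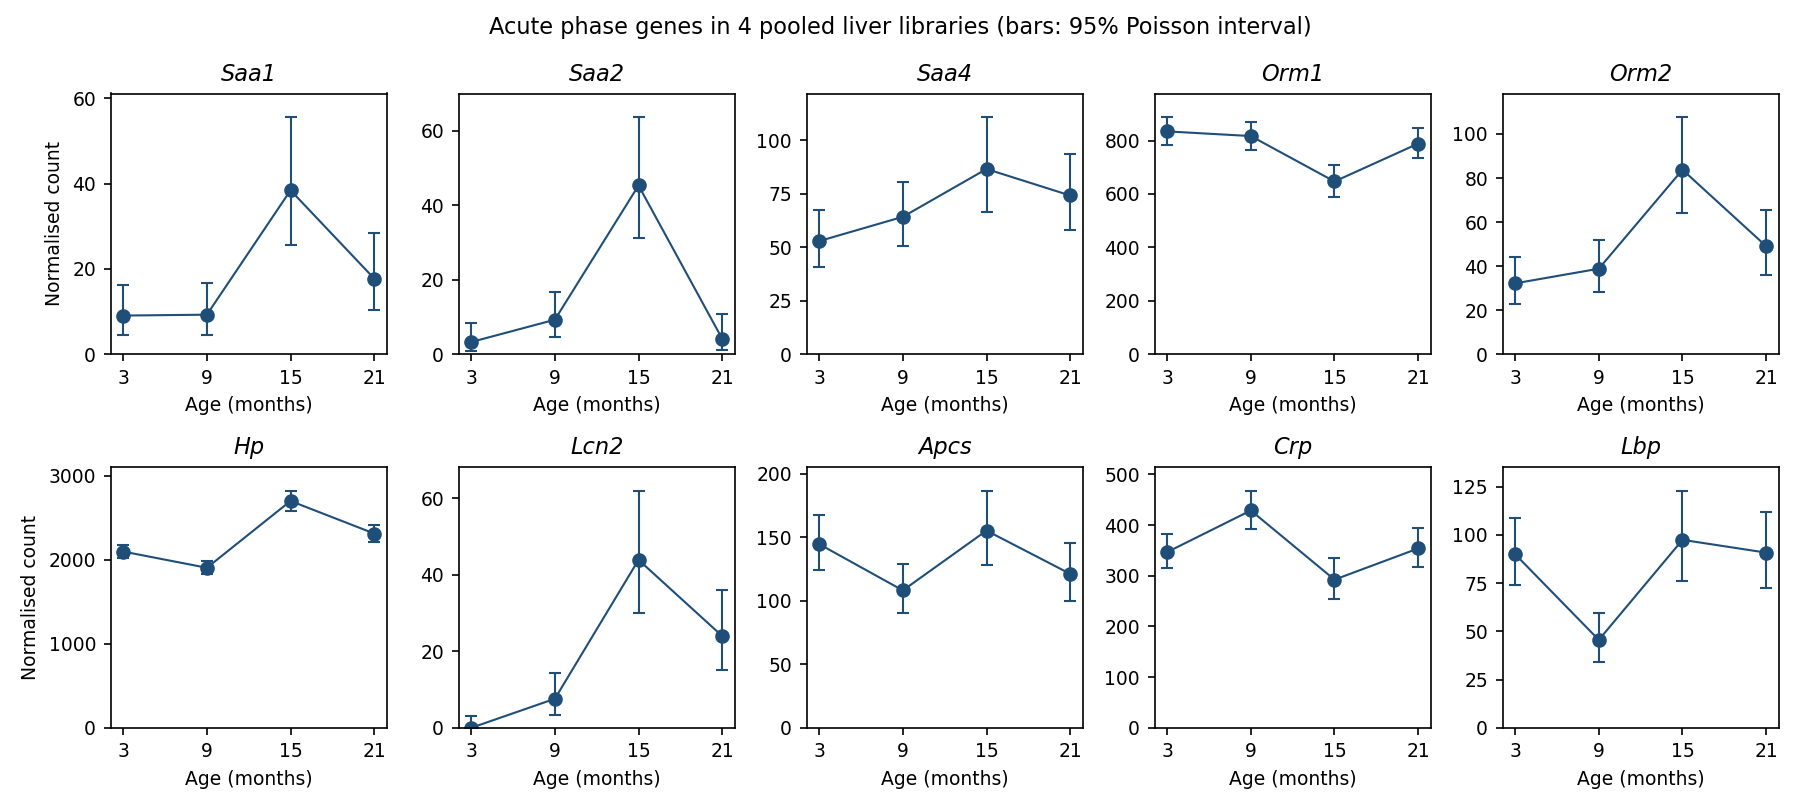
Normalised counts (vertical axes, starting at 0) of the 10 acute phase genes against age in months, with points for the 4 pooled libraries and bars for 95% Poisson intervals. Saa1, Saa2, Orm2 and Lcn2 share a maximum at 15 months, with 38.4, 45.3, 83.8 and 43.9 normalised counts, whereas Orm1 and Crp have their lowest value there. When scaled by Gapdh alone, neither Orm1 nor Crp is lowest at 15 months.

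Lcn2 encodes lipocalin 2, which withholds iron from bacteria by binding their siderophores (chromosome 2 of NCBIM37, 32240153 to 32243317, minus strand). It had 0, 9, 32 and 23 counts at 3, 9, 15 and 21 months. For the 0 at 3 months a limit of 3 counts was used, or 2.48 normalised counts (the upper end of its Poisson interval is 3.05), compared with 7.60, 43.9 and 24.02 in the older pools. Lcn2 was the only member without a count in the youngest pool. Set against 3 counts in the 3 month library, the level was at least 3.07-fold higher at 9 months, at least 17.7-fold higher at 15 months and at least 9.69-fold higher at 21 months. With the counting error of the 9, 32 and 23 counts included, the lower ends of these ratios were 2.02, 13.6 and 7.27. Between 9 and 15 months the ratio was 5.78 (from 2.70 to 13.8), and between 15 and 21 months it was 0.547 (from 0.305 to 0.964).

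The orosomucoids, also called alpha-1-acid glycoproteins, are plasma lipocalins that bind drugs and lipids. Orm1 (chromosome 4, 63005594 to 63009197) and Orm2 (63023483 to 63026912) lie on the plus strand, with 17889 bases between their starts. Orm1 had 1010, 967, 471 and 755 counts, or 834, 817, 647 and 788 normalised counts. Its level at 15 months was the lowest, with a ratio of 0.792 to 9 months (from 0.708 to 0.885). Orm2 had 39, 46, 61 and 47 counts, or 32.2, 38.8, 83.8 and 49.1 normalised counts. Its level at 15 months was the highest, 2.16-fold above 9 months (from 1.45 to 3.23) and 2.60-fold above 3 months (from 1.71 to 3.99). The neighbours thus had their extreme values at the same age but in opposite directions.

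A ratio within a library does not depend on the scale. The ratio of Orm1 to Orm2 counts was 25.9 at 3 months (from 18.8 to 36.6), 21.0 at 9 months (from 15.6 to 28.9), 7.72 at 15 months (from 5.90 to 10.3) and 16.1 at 21 months (from 11.96 to 22.1). The interval at 15 months did not overlap that of any other age, and the other 3 intervals overlapped one another. The ratio of Orm1 at 15 to 9 months was 0.888 with library totals and 0.967 with the 7 marker genes of the study, both above its interval. On the scale of Gapdh alone, Orm1 was higher at 15 than at 9 months (1.12-fold). The size and direction of its difference thus depend on the normalisation.

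**Figure D2:**
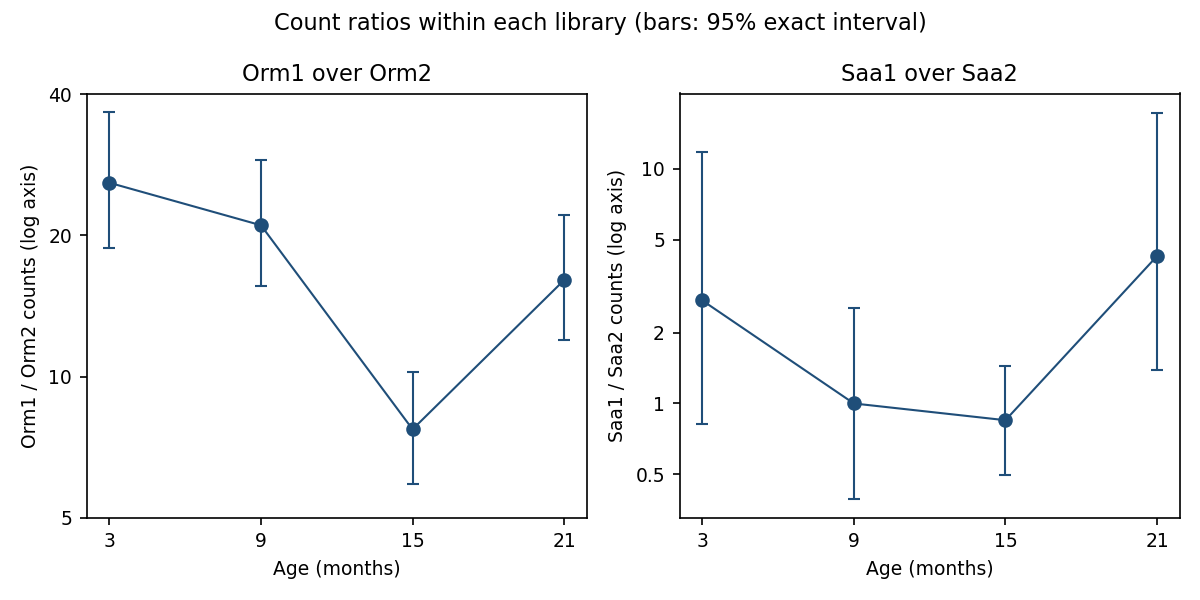
Ratios of Orm1 to Orm2 counts (left) and of Saa1 to Saa2 counts (right) within each library on log axes, against age in months, with 95% exact intervals. The Orm ratio is lowest at 15 months (7.72) with an interval below those of the other ages, and the Saa ratio is 0.848 at 15 and 4.25 at 21 months.

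Hp encodes haptoglobin, which captures free haemoglobin (chromosome 8, 112099030 to 112103072, minus strand). It had 2541, 2256, 1967 and 2215 counts, or 2098, 1905, 2701 and 2313 normalised counts. With this depth, small differences exceeded counting error. The level at 15 months was 1.42-fold that at 9 months (from 1.33 to 1.51) and 1.29-fold that at 3 months (from 1.21 to 1.37), and at 21 months the ratio to 15 months was 0.856 (from 0.806 to 0.911). The sizes of these differences depend on the normalisation. With library totals, 7 marker genes and Gapdh, the ratio of 15 to 9 months was 1.59, 1.73 and 2.01. That of 15 to 3 months was 1.41, 1.41 and 2.41. All of these lay above the intervals, which cover counting error only. Hp made up from 55.5% to 64.4% of the counts of the 10 genes. Together the 10 genes took 0.457%, 0.424%, 0.580% and 0.499% of the counts on genes at 3, 9, 15 and 21 months. The 95% Wilson interval at 15 months, from 0.560% to 0.601%, lay above those of the other libraries. Without Hp the shares were 0.192%, 0.189%, 0.206% and 0.198%, and their intervals overlapped.

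The pentraxins Apcs and Crp encode serum amyloid P component and C-reactive protein, ring-shaped proteins that bind microbial surfaces and damaged cells. Both lie on chromosome 1, Crp from 174628187 to 174630097 (plus strand) and Apcs from 174824093 to 174825185 (minus strand). Apcs had 175, 128, 113 and 116 counts, or 145, 108, 155 and 121 normalised counts. Its level at 15 months was 1.44-fold that at 9 months (from 1.104 to 1.86) but was not separated from that at 3 months (ratio of 1.07, from 0.840 to 1.37). Crp had 420, 508, 213 and 339 counts, or 347, 429, 292 and 354 normalised counts. It was highest at 9 months and lowest at 15 months, with a ratio of 0.682 between them (from 0.578 to 0.802). With the 7 marker genes this ratio was 0.832, above that interval. The extremes of Apcs and Crp were thus at the same ages but in opposite order. The ratio of Crp to Apcs counts was 3.97 at 9 months (from 3.26 to 4.86) and 1.88 at 15 months (from 1.49 to 2.39).

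Lbp encodes the lipopolysaccharide binding protein, which hands bacterial lipopolysaccharide to CD14 (chromosome 2, 158132229 to 158158588, plus strand). It had 109, 54, 71 and 87 counts, or 90.0, 45.6, 97.5 and 90.9 normalised counts. Here the 9 month pool was the one that differed, whereas 3, 15 and 21 months lay close together. The ratio of 9 to 3 months was 0.507 (from 0.359 to 0.708), that of 15 to 9 months 2.14 (from 1.48 to 3.10) and that of 15 to 3 months 1.08 (from 0.792 to 1.47). No other annotated gene overlaps any of the 10 genes in NCBIM37.

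Taking the steps of age in turn, 2 members (Saa2 and Lcn2) had a ratio of 2 or more from 3 to 9 months, where 7.49% of the 4315 genes with 20 counts in at least 1 library did so. No member had a ratio of 0.5 or less, against 9.32% of all genes. From 9 to 15 months, 5 members were at least 2-fold higher (Saa1, Saa2, Orm2, Lcn2 and Lbp) against 6.05% of all genes, and none was 2-fold lower against 11.1%. From 15 to 21 months, 2 members were at least 2-fold lower (Saa1 and Saa2) against 7.86% of all genes, and none was 2-fold higher against 10.8%. Saa1, Saa2 and Lcn2 reached 20 counts only through the pools in which they were high. For this reason, and as the members were picked with these counts in view, nothing is concluded from the difference to all genes. When the interval of the ratio also had to leave out 1, only Lcn2 counted as higher from 3 to 9 months (6.77% of all genes, and no member lower against 8.6%). From 9 to 15 months the same 5 members counted as higher (4.87%) and none as lower (8%). From 15 to 21 months Saa1 and Saa2 still counted as lower (5.68%) and none as higher (7.32%).

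Comparisons that skip an age share libraries with the steps. At 15 against 3 months, Saa1, Saa2, Orm2 and Lcn2 were at least 2-fold higher (6.33% of all genes) and none was 2-fold lower (14%), and the same 4 remained with an interval that leaves out 1 (5.31% higher and 10.6% lower among all genes). At 21 against 3 months only Lcn2 was (7.18% of all genes) and none was lower (11.1%), and at 21 against 9 months Lcn2 was at least 2-fold higher (7.07%) and Saa2 at least 2-fold lower (9.41%). With the interval, Lcn2 remained higher in both comparisons (6.35% and 6.1% of all genes) and no member was lower (9.39% and 7.37%). Without the 15 month library, Lcn2 was thus the only member past 2-fold between the youngest and the oldest mice on the centered log-ratio scale. Saa1, with a ratio of 1.95, passed it on 3 of 7 scales. The median log2 difference of the 10 members was 0.81 from 9 to 15 months, compared with -0.12 for all genes, and -0.29 from 15 to 21 months, compared with 0.08. In all, 8 members had their highest level at 15 months, an age at which 18.9% of all genes were highest and 34.5% lowest. For Saa4, Apcs and Lbp this maximum was not separated from every other age by counting error. Their intervals included 1 against 9 months (Saa4, from 0.949 to 1.91) or 3 months (Apcs, from 0.840 to 1.37, and Lbp, from 0.792 to 1.47). The intervals of the ratios of 21 to 15 months also included 1 for Saa4 (from 0.602 to 1.22), Apcs (from 0.597 to 1.02) and Lbp (from 0.673 to 1.29). Here too the members had been picked with their counts across the ages in view. Nothing is therefore concluded from the shares, medians and maxima of the members set beside those of all genes.

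**Figure D3:**
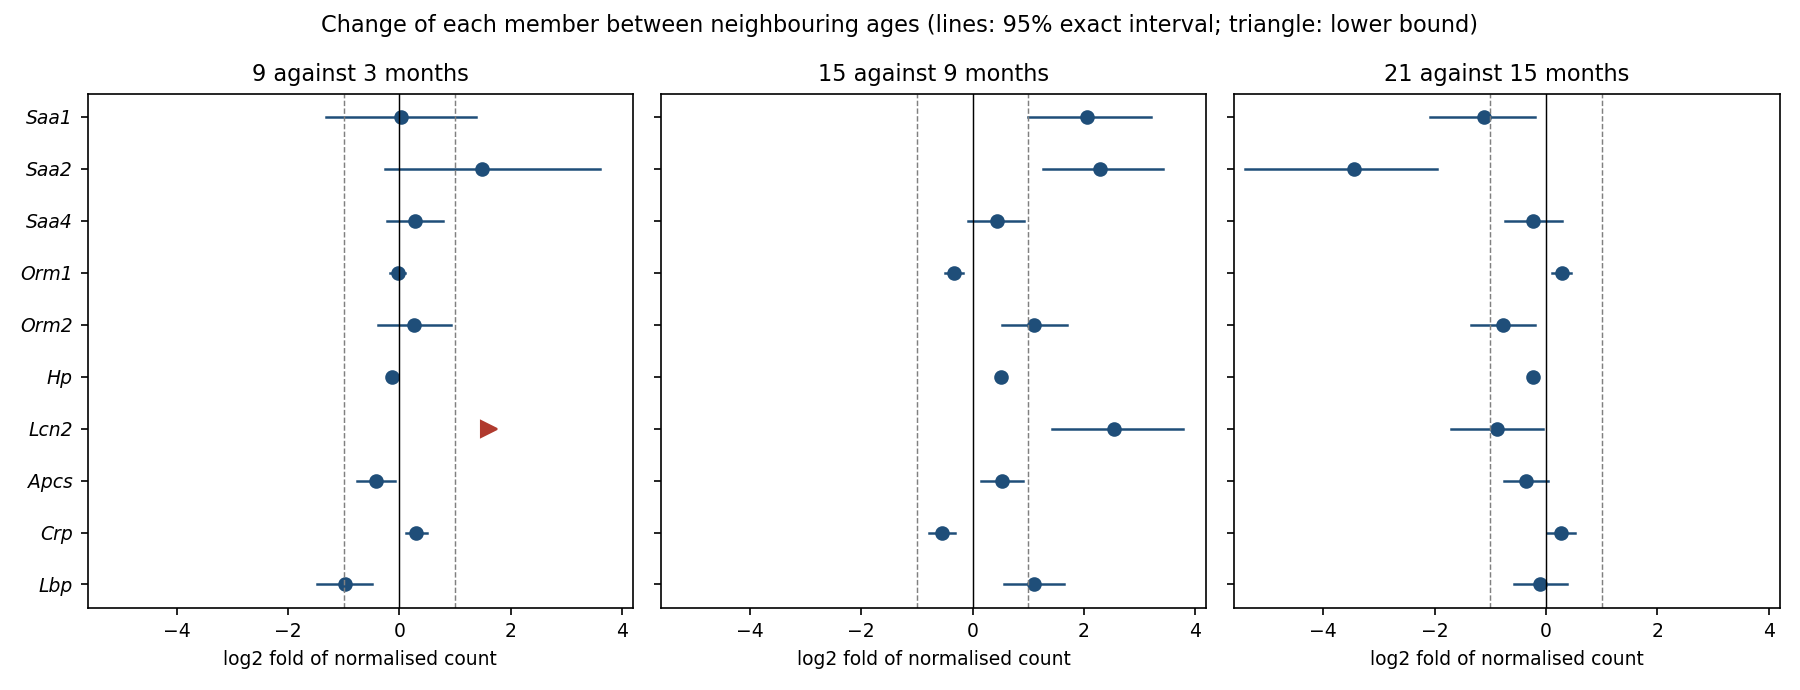
Log2 ratios of normalised counts of each member between neighbouring ages, with points for ratios and lines for 95% exact intervals. A triangle marks the ratio of 9 to 3 months of Lcn2, with its 0 counts at 3 months set to 3 (3.07-fold). With counting error included, the lower end of that ratio is 2.02. Dashed lines mark 2-fold. From 9 to 15 months, 5 members lie beyond the upper dashed line and Orm1 and Crp lie below 0.

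The spread of the members over the 4 ages differed widely. The ratio of the highest to the lowest normalised count was at least 17.7 for Lcn2, 13.7 for Saa2, 4.23 for Saa1, 2.60 for Orm2 and 2.14 for Lbp. Saa1, Saa2 and Lcn2 reached 20 counts through the pools in which they were high, so that their ranges are not set against those of other genes. The remaining members varied less, with 1.64 for Saa4, 1.47 for Crp, 1.44 for Apcs, 1.42 for Hp and 1.29 for Orm1. These 5 had at least 60 counts in every library, whereas the most variable genes had few. Since ratios of low counts scatter more, the order of the ranges mixes counting error with differences between the pools.

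Other genes of the acute phase were taken as lists. Of 28 further positive acute phase genes, 22 reached 20 counts in at least 1 library. None of these was 2-fold higher or lower from 9 to 15 months, where 6.05% and 11.1% of all genes were. Their median log2 difference was -0.01. Fga, a fibrinogen chain, had 5478, 4301, 2596 and 3855 counts (4524, 3632, 3564 and 4026 normalised counts), and Lrg1 had 404, 372, 504 and 379 normalised counts. Cfb, encoding complement factor B, was the only one past 2-fold at 15 and at 21 against 3 months. Of all genes, 14% and 11.1% were 2-fold lower there, and 6.33% and 7.18% higher. The level of Cfb was lower at each later age. The 410, 241, 120 and 138 counts correspond to 339, 204, 165 and 144 normalised counts. The next largest ranges in this list were those of Fgl1 (1.66-fold), Hamp (1.56-fold) and Serpina3m (1.54-fold). Of these, Fgl1 was highest at 15 months, and Hamp and Serpina3m at 21 months. Saa3 and Orm3, the remaining paralogs of the members, had too few counts to be included, with 18, 0, 1 and 2 counts for Saa3 and 1, 2, 1 and 11 for Orm3. They were thus highest at 3 and at 21 months, not at 15 months.

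All 12 negative acute phase genes were measured and none passed 2-fold in any comparison. Of all genes, from 6.05% to 14% did so in a given direction. Ahsg, which encodes fetuin A, had 31088, 23220, 11136 and 16391 counts and the largest range in this list (1.68-fold). Ttr followed with 15342, 14125, 5834 and 9187 counts (1.58-fold). The median log2 difference of the list was -0.06 from 9 to 15 months and -0.11 from 3 to 15 months, where all genes had -0.12 and -0.15.

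Upstream of the members, the receptors and signalling genes lay on both sides of the threshold. Of 29 genes 17 reached 20 counts in 1 library. From 9 to 15 months Ikbkb and Tnfrsf1b were at least 2-fold higher (6.05% of all genes) and Il1r1 at least 2-fold lower (11.1%). Ikbkb, a kinase of the NF-kB pathway, had 12, 18, 27 and 23 counts, or 9.91, 15.2, 37.1 and 24.02 normalised counts. Jak2, a kinase of cytokine receptors, had 20, 5, 4 and 4 counts and Il1r1, the interleukin-1 receptor, 21, 37, 8 and 17. Socs3, a target of STAT3 that is induced in the acute phase, had only 12, 6, 3 and 4 counts. In normalised counts these are 9.91, 5.07, 4.12 and 4.18, so that the 15 and 21 month pools were nearly level. Stat3 itself had 51, 36, 32 and 33 counts, or 42.1, 30.4, 43.9 and 34.5 normalised counts.

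Among the 14 transcription factors, 10 reached 20 counts and only Foxa2 was past 2-fold from 9 to 15 months. Foxa2 had 17, 9, 21 and 4 counts, or 14.0, 7.60, 28.8 and 4.18 normalised counts. It reached 20 counts only through the 15 month pool, so that its place among these genes rests on the value that was high. It was higher at 15 months, as 6.05% of all genes were, while 11.1% of all genes were 2-fold lower. Nr3c1, the glucocorticoid receptor, had 20, 38, 33 and 40 counts and was past 2-fold at 15 and at 21 against 3 months. In these comparisons 6.33% and 7.18% of all genes were 2-fold higher. Cebpb and Cebpd, C/EBP factors that are induced by cytokines, had 11, 14, 5 and 8 counts and 5, 4, 1 and 2 counts. In normalised counts these are 9.08, 11.8, 6.87 and 8.35 for Cebpb and 4.13, 3.38, 1.37 and 2.09 for Cebpd. Of 9 cytokine genes, 5 (Il6, Osm, Lif, Il11 and Il22) had no count in any library, which allows 3 counts per library. The 9 genes together had 5, 10, 9 and 6 counts. These values say nothing on cytokines made outside the liver.

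Glucocorticoid responders were led by the metallothioneins, whose maximum was at 9 months: Mt2 had 5, 279, 13 and 48 counts and Mt1 135, 1335, 117 and 221. Of the other responders, Tsc22d3 had 20.6, 30.4, 43.9 and 36.5 normalised counts and Sgk1 12.4, 20.3, 27.5 and 11.5. Both were highest at 15 months and past 2-fold against 3 months, as 6.33% of all genes were in the higher direction. Errfi1 and Lcat were also highest at 15 months. Tat, Per1 and Zbtb16 were lowest there, Tat with 614, 889, 463 and 594 normalised counts. Fkbp5 had 37, 15, 12 and 7 counts. From 9 to 15 months, 3 of the 10 responders with 20 counts in 1 library were at least 2-fold lower (Mt1, Mt2 and Per1) and none was 2-fold higher. Of all genes, 11.1% were lower and 6.05% higher.

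**Figure D4:**
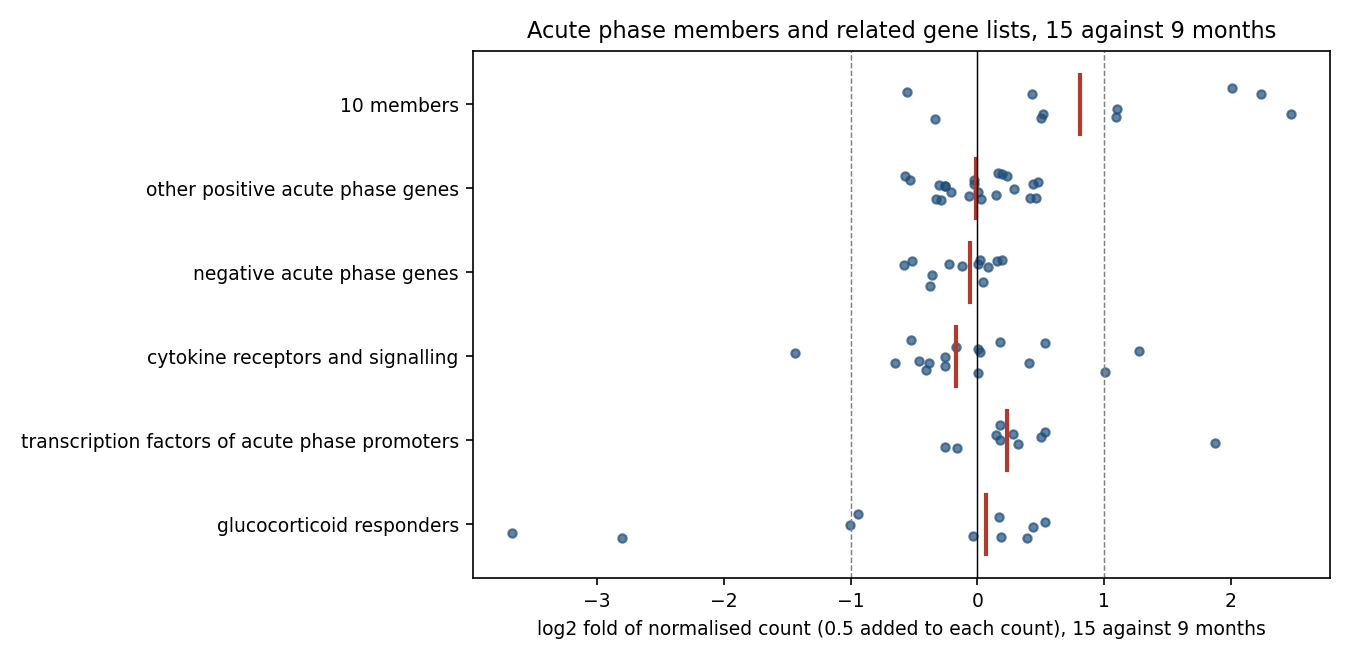
Log2 ratios of normalised counts at 15 against 9 months, with 0.5 added to each count, for the 10 members and for the genes of 5 related lists with 20 counts in at least 1 library; each point is a gene, red bars are list medians and dashed lines mark 2-fold. The median of the members is 0.81 and that of the other positive acute phase genes -0.01.

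As Lcn2, Hp and the orosomucoids are also made by neutrophils or adipocytes, markers of other cells were examined. Fewer cells of a type and less RNA per cell cannot be told apart in these pools. Neutrophil markers were close to absent: 5 of 10 (S100a9, Elane, Mpo, Retnlg and Mmp8) were at 0 in every library, and the 10 genes together had 2, 1, 9 and 4 counts (1.65, 0.845, 12.4 and 4.18 normalised counts). Of the 9 counts at 15 months, 6 belonged to S100a8. The sum was therefore highest in the pool with the highest Lcn2, and its part in the level of Lcn2 was not tested. For adipocytes, 5 of 6 markers (Adipoq, Plin1, Lep, Cfd and Retn) were at 0 throughout, and the remaining gene, Fabp4, was lowest at 15 months with 29, 30, 7 and 24 counts. The 12 macrophage markers summed to 715, 856, 776 and 939 normalised counts, with Marco at 10, 18, 20 and 30 counts and Cd68 at 25, 41, 6 and 21. Timd4 had 16, 31, 34 and 25 counts and Vsig4 17, 43, 12 and 19. All 10 hepatocyte markers, Alb included, were present in every library, and their sum was 62308, 66390, 56713 and 67940 normalised counts, lowest at 15 months. Lymphocyte markers summed to 4.13, 13.5, 15.1 and 23.0, endothelial and stellate markers to 661, 787, 649 and 728, cholangiocyte markers to 22.3, 13.5, 30.2 and 19.8 and erythroid markers to 1270, 1915, 1233 and 1058 normalised counts.

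The genes whose pattern over the 4 libraries was nearest to that of the 3 most variable members were searched among 2447 genes with at least 100 counts in all, by the root mean square difference of centred log2 normalised counts. With 4 libraries, such likeness is loose. For Saa1 the nearest were Col1a2, a collagen gene with 25, 20, 46 and 31 counts (0.16), and Ash1l with 25, 25, 43 and 31 counts (0.23). For Saa2 the nearest was mmu-mir-689-2 with 114, 163, 259 and 66 counts (0.61). For Lcn2 the nearest was SNORA43 with 8, 20, 61 and 32 counts (1.43), a distance set by the 0.5 added to the 0 of Lcn2 at 3 months, since with 3 counts in its place the distance was 0.34. The members themselves were left out of the search, and genes with fewer than 100 counts were not candidates.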

How the data were processed

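Gene counts of 4 mouse liver libraries, 1 for each age, were analysed. The ages were taken from the labels. The authors sequenced capped 5’-ends with 35 bp reads on a SOLiD instrument and mapped them to mm9 with the CLC Genomic workbench, and the submitters' processing notes name HTSeq. The deposited values are raw counts of reads per gene symbol. The 5 closing lines of each file do not name a gene (from 91.6% to 93.3% of the records) and were left out. Whether strand was used in counting is not given in the sources used here.

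Counts were divided by the geometric mean over the 8704 genes counted in every library (centered log-ratio), scaled to a geometric mean of 1 over the libraries. Ratios have Clopper-Pearson intervals, single counts Poisson intervals and shares Wilson intervals, all at 95%. A count of 0 was set to 3 counts in ratios, and 0.5 was added to each count for medians over lists and for the search of similar genes. A ratio of at least 2 or at most 0.5 was the threshold. No test was made, because each age had 1 library and the members and lists were chosen with earlier results of these data known. Genes named from a list were taken from those with the largest range, and not all such genes were named. Fga, Lrg1, Saa3, Orm3, Socs3, Stat3, Cebpb, Cebpd, Tnfrsf1b, Per1, S100a8, Tsc22d3, Errfi1, Lcat, Tat and Zbtb16 were named after their values had been seen. The calls were checked on simulated counts with known ratios. Alternatives were library totals, TMM (edgeR 4.0.16), DESeq2 1.42.0 size factors, 7 marker genes, Gapdh, a centre over genes with 10 counts in every library and a threshold of 1.5. Requiring an interval that leaves out 1, summing Saa1 and Saa2, and setting 0 to 3 counts in the search of similar genes were added after the data had been seen. Positions are from GENCODE M1 (NCBIM37), and promoters from RefSeq (GRCm38.p6). The software was Python 3.11.15, scipy 1.17.1, biopython 1.88 and R 4.3.3.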

Additional observations from a re-analysis of the deposited data

How the results depend on the processing

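No paired analysis was possible because each age has 1 library. The 5 members at least 2-fold higher at 15 than at 9 months, and the 2 at least 2-fold lower at 21 than at 15 months, passed on all 7 scales, and with Gapdh 7 were higher at 15 than at 9 months (Hp and Apcs in addition). Of 60 ratios of members between ages, all stayed within their intervals with TMM, DESeq2 size factors or a centre over genes with 10 counts in every library, 4 left them with library totals, 9 with 7 marker genes and 25 with Gapdh. Gapdh moved all genes by 0.50 (log2) at 15 against 9 months and by 0.91 at 15 against 3 months, and library totals by 0.17 and 0.13. On the scale of Gapdh, 8 members in place of 4 were at least 2-fold higher at 15 than at 3 months (34.4% of all genes), 4 were lower at 21 than at 15 months (21.9%), and 2 were higher at 21 than at 3 months (13.3%). The directions of Orm1 and Crp at 15 against 3 and at 21 against 15 months, and of Orm1 at 15 against 9 months, turned on that scale only. With library totals and with 7 marker genes, Lbp was 2-fold lower at 9 than at 3 months (1 member in place of 0), 2 members were higher at 21 than at 3 months and 3 at 21 than at 9 months, and with 7 marker genes 0 were lower at 21 than at 9 months. With DESeq2 size factors 2 members were higher at 21 than at 9 months. A threshold of 1.5-fold gave 1 lower member at 9 against 3 months (20.3% of all genes), 4 lower at 21 against 15 months (16.7%), 5 higher at 15 against 3 months (13.998%), 3 higher at 21 against 3 months (15.5%) and 3 higher at 21 against 9 months (16.5%). Requiring an interval that leaves out 1 left 1 higher member at 9 against 3 months and 0 lower at 21 against 9 months. The shares of all genes past 2-fold were lower among genes with 10 counts in every library (from 3.43% to 5.38% over comparisons and directions, with 8 of the members left, Saa2 and Lcn2 being lost) and higher without a filter (from 18.9% to 25.01%). The split of all genes past 2-fold at 15 against 9 months was 6.05% higher to 11.1% lower as reported, 8.41% to 8.25% with library totals, 10.1% to 7.14% with 7 marker genes and 17.3% to 4.98% with Gapdh. At 15 against 3 months the higher share of such genes went from 31.2% to 41.3%, 42.2% and 91.0% on these scales, at 9 against 3 months from 44.55% to 30.9% (7 marker genes) and 79.3% (Gapdh), at 21 against 15 months from 57.9% to 16.1% (Gapdh), at 21 against 3 months from 39.4% to 68.25% (Gapdh) and at 21 against 9 months from 42.9% to 63.7% (7 marker genes). Depth limited Saa2 most, whose ratios of 2.81 (9 against 3 months) and 0.450 (21 against 9 months) had intervals that include 1.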
